A study of Montastraea cavernosa with 311 samples.

Results

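The genes described here are the host isogroups of the coral Montastraea cavernosa whose names belong to innate immune receptors and their signalling. An isogroup is a group of assembled transcripts that the authors treated as a gene. Members were chosen by words in the name alone, with earlier results of these data known. The words were tumor necrosis factor, TNF, toll, NACHT, interferon, interleukin, lectin, complement c, MyD88, NF-kappa and scavenger receptor. Mcavernosa00872, a tumor necrosis factor ligand, and names holding the word galactin were left out. The rule matched 213 named isogroups, of which 177 were in the count table, out of 17901 host isogroups there. By the first word that matched, the largest shares came from TNF with 58 isogroups, lectin with 52, scavenger receptor with 35 and NACHT with 22. No name held MyD88 or NF-kappa. Several names entered by their wording although the protein's best known role lies elsewhere, among them tolloid proteases, lectins of the endoplasmic reticulum and interferon-related developmental regulators.

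The study sequenced 3′ tags of 311 libraries and deposited raw counts of host and Cladocopium symbiont isogroups. Natural colonies came from shallow and mesophotic depth at the sites labelled WFGB, EFGB, PRTER and CBC, in the Gulf of Mexico and Belize according to the series title. Natural libraries with at least 20000 host counts numbered 28 mesophotic and 35 shallow at WFGB, with 21 and 39 for EFGB, 41 and 31 for PRTER and 22 and 36 for CBC, which makes 253 of the 265 deposited. The experiment, at WFGB and EFGB, held transplants, mesophotic controls and shallow controls at times labelled 6 and 12, with no unit given. Its transplant libraries numbered 8 at time 6 and 5 at time 12, the mesophotic controls 7 and 6, and the shallow controls 10 and 9, with 1 of the 46 libraries, a transplant from EFGB at time 12, under the count minimum. Colony tags in the titles tied 24 retained natural libraries to these arms as baselines, 7 for the transplants, 8 for the mesophotic controls and 9 for the shallow controls. The baselines of the transplants were labelled mesophotic. Each library is a bulk sample of coral tissue, and in such samples fewer cells of a type and less RNA per cell cannot be told apart. Where no colony tag is given, nothing states that libraries of a group came from separate colonies, so that their spread may in part be technical.

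Innate immunity in corals rests on germline-encoded receptors, since cnidarians lack the rearranged antigen receptors of vertebrates. Toll-like receptors, NACHT-domain proteins, lectins and scavenger receptors bind microbial molecules, and lectins also take part in the recognition of algal symbionts. TNF ligands bind receptors at the cell surface, and TRAF adaptors carry the signal of TNF and Toll-like receptors toward transcription factors of the NF-kappa B and AP-1 families. Complement proteins, which cnidarians possess in an early form, mark microbes for uptake, and mannan-binding lectin serine peptidases start that cascade. Coral genomes hold large families of TNF receptor, TRAF and NACHT genes.

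How much of the set could be seen depended on the library. Host counts ranged from 2251 to 1145508 per library before the count minimum. The number of members with at least 1 count had a median of 24 of 177 per library, with a range of 7 to 75. Across the 253 natural libraries it followed the number of host isogroups with a count, with a Spearman correlation of 0.97. Both counts come from the same library, and the correlation is given as a description only. The total of host counts ran against that number, with a Spearman correlation of -0.57. The median shallow library of WFGB held 4449 host isogroups and 51 members on a median of 53608 counts per retained library. The median shallow library of CBC held 1257 isogroups and 15 members on a median of 267064.5 counts. Medians of isogroups with a count lay between these at WFGB mesophotic with 3739.5, EFGB shallow with 3570, EFGB mesophotic with 1782, and PRTER with 1753 shallow and 1820 mesophotic. The contrasts below were therefore also fitted with the number of detected host isogroups as a covariate. The part that library complexity played in any difference was not tested further.

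**Figure D1:**
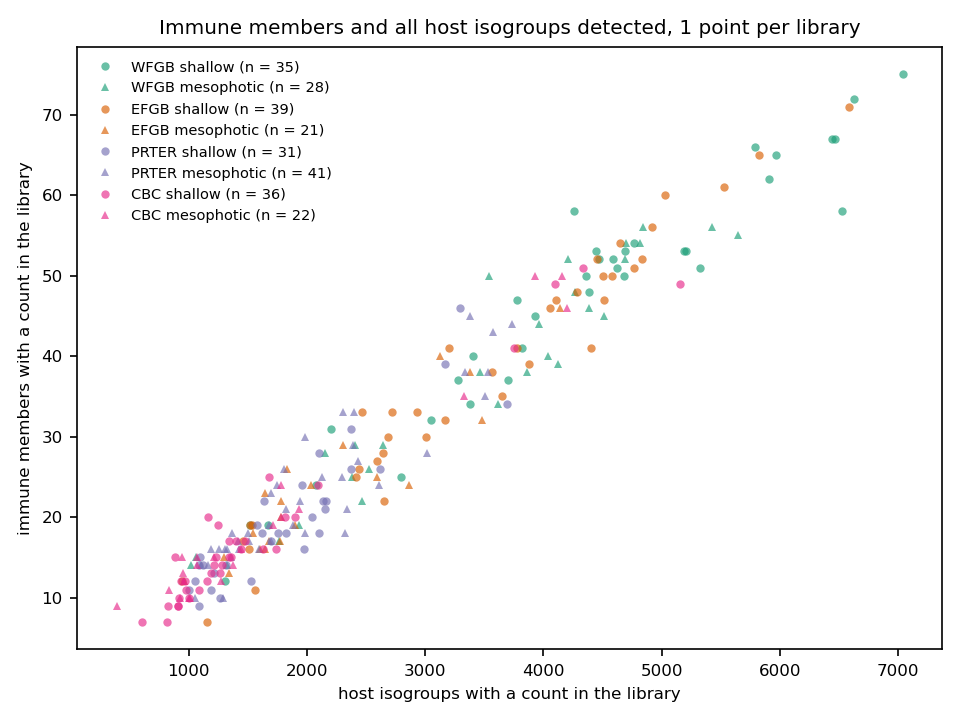
Members with at least 1 count against all host isogroups with at least 1 count, 1 point per natural library, with sites and depths marked. Libraries of WFGB lie furthest to the upper right, with a median of 46 members, and those of CBC furthest to the lower left, with a median of 15.

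Few members were abundant. Of the 177, 69 had a count in at least 10% of natural libraries and were tested, which is 39% against 37% of all host isogroups. The other 108 fell under that limit, and 2 of them had no count in any natural library. Only 14 members were counted in most natural libraries, and 1 was counted in every one. That one was Mcavernosa07301, named interferon regulatory factor 2 binding, at a mean of 8900 counts per 1000000 host counts of a library (CPM), rank 11 of all host isogroups. In mammals, proteins of that name bind IRF2 and repress transcription. Next came Mcavernosa23257, named only complement component, at 5760 CPM and rank 20. Together these isogroups held a median of 69.9% of all member counts in a library, with a range of 13.0% to 98.4%. After a gap followed Mcavernosa01626, named C-type lectin domain family 4 member G (CLEC4G), a membrane lectin that binds glycans in mammals, at 753 CPM. Mcavernosa07768, interferon regulatory factor 4, a transcription factor of the immune system in vertebrates, had a mean of 635 CPM. The LITAF isogroup Mcavernosa20732, named after a protein of endosomal membranes that lipopolysaccharide induces in mammals, had 605 CPM. The lectin C-type domain isogroup Mcavernosa02857 had 469 CPM and a count in 252 of 253 libraries. In 3′ tag data each transcript gives about 1 tag whatever its length, so CPM can be set side by side between isogroups.

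TNF ligand isogroups had a count in a median of 20.5 of the 265 deposited natural libraries and TNF receptors in 8, beside 13 for all host isogroups. Of 6 TNF ligand isogroups in the table, 2 reached 10% of libraries. The more often counted was Mcavernosa23708, tumor necrosis factor ligand superfamily member 10, the death receptor ligand TRAIL of mammals, in 39.1% of natural libraries. Its median level was 54 CPM in shallow and 30.5 CPM in mesophotic libraries of WFGB, 30.2 CPM in shallow libraries of EFGB, and 0 in the mesophotic libraries there. Mcavernosa00880, another TNF ligand, had a count in 15.4% of libraries. Of 3 receptors, Fas (Mcavernosa03189), which triggers apoptosis in mammals, was counted in 34.8% of libraries. Its share was highest at shallow WFGB with 60.0% and mesophotic PRTER with 53.7%, and lowest at shallow CBC with 11.1%. The isogroup named TNFR (Mcavernosa18987) was counted in 7 of 253 libraries, none of them from PRTER, CBC or mesophotic EFGB.

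TRAF adaptors were the most numerous class, with 38 isogroups in the table, 11 of them in at least 10% of libraries. Their summed level had a median of 1100 CPM at WFGB, 912 at EFGB, 711 at PRTER and 593 at CBC. A median library of WFGB held counts of 7 TRAF isogroups and one of CBC held 2. The highest means were those of Mcavernosa11801 with 332 CPM, Mcavernosa11799 with 302 CPM and Mcavernosa11793 with 159 CPM. These isogroups have close numbers and the same name, so tags of one may have been counted in another, and their single values are uncertain. Mcavernosa11801 had medians of 318 CPM shallow and 248 mesophotic at WFGB, with 269 and 183 for EFGB, 4.96 and 240 for PRTER and 0 and 5.95 for CBC. At PRTER and CBC its median was thus higher in mesophotic libraries and at WFGB and EFGB in shallow ones. Mcavernosa11799 had its highest group median in the mesophotic libraries of CBC, where single libraries reached 5460 CPM, against a median of 10.9 in shallow libraries there. Among the other TNF pathway names, Mcavernosa01604, a TNFRSF1A modulator better known as the BRE subunit of deubiquitinating complexes, was counted in 226 libraries at a mean of 190 CPM. The kinase RIPK1 (Mcavernosa31997), which passes signals from TNF receptors to survival or death pathways in mammals, was counted in 37.9% of libraries.

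Among pattern recognition receptors other than lectins, Toll-like receptors had a count in a median of 17 of the 265 natural libraries, NACHT isogroups in 6 and scavenger receptors in 7, beside the same 13 for all host isogroups. Low detection was thus general to these libraries. Of 4 Toll-like receptor isogroups, Mcavernosa17125 was counted in 19.8% of natural libraries, 50 of 253. By group that share ran from 8.33% at shallow CBC to 26.8% at mesophotic PRTER. Mcavernosa05359 was counted in 20 libraries, none of them from PRTER or from shallow CBC. Of 19 NACHT isogroups, 4 reached 10% of libraries. The leading one, the NACHT and WD repeat isogroup Mcavernosa10546, was counted in 39.9% of libraries, and Mcavernosa13038 in 16.2%. The summed NACHT level had a median of 166 CPM at WFGB and 129 at EFGB, and 0 at both other sites. Of 26 scavenger receptor isogroups, 8 were tested. The scavenger receptor cysteine-rich isogroups Mcavernosa29849 and Mcavernosa29985 were counted in 45.5% and 40.3% of libraries. The class summed to a median of 329 CPM at WFGB, 301 at EFGB, 24.1 at PRTER and 8.3 at CBC. With so few isogroups seen per library, a count of 0 for these receptors shows that they were not detected in that library, not that they were absent.

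Lectins divided into 16 C-type lectin isogroups in the table, 5 of them tested, and 21 other lectins, 10 of them tested. The C-type lectins summed to a median of 1680 CPM at WFGB, 1500 at EFGB, 1290 at PRTER and 528 at CBC. CLEC4G and Mcavernosa02857 had the highest means of the class. Among the other lectins, endoplasmic reticulum lectin 1 (Mcavernosa09042) and OS9 (Mcavernosa00135), which sort misfolded glycoproteins for degradation in mammals, were counted in 56.5% and 43.1% of libraries. Of 13 complement isogroups 9 were tested. The class summed to a median of 6240 CPM at WFGB, 5250 at EFGB, 6520 at PRTER and 3110 at CBC, with Mcavernosa23257 as the leading isogroup. Complement component 2 (Mcavernosa11508), a serine protease of the cascade in mammals, was counted in 71.5% of libraries. Mannan-binding lectin serine peptidase 1 (Mcavernosa06219), the protease that sits on lectins bound to a microbe in mammals, was counted in 58.9% of libraries. Interferon names, 14 in the table and 8 tested, summed to a median of 10100 CPM at WFGB, 7180 at EFGB, 10500 at PRTER and 6530 at CBC, with Mcavernosa07301 as the leading isogroup. Both interleukin names were tested. Interleukin 16 (Mcavernosa14443), a secreted attractant of immune cells in mammals, was counted in 44.3% and interleukin enhancer binding factor 2 (Mcavernosa31094), an RNA-binding protein, in 40.7% of libraries. Of the 2 tolloid names neither reached 10%.

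**Figure D2:**
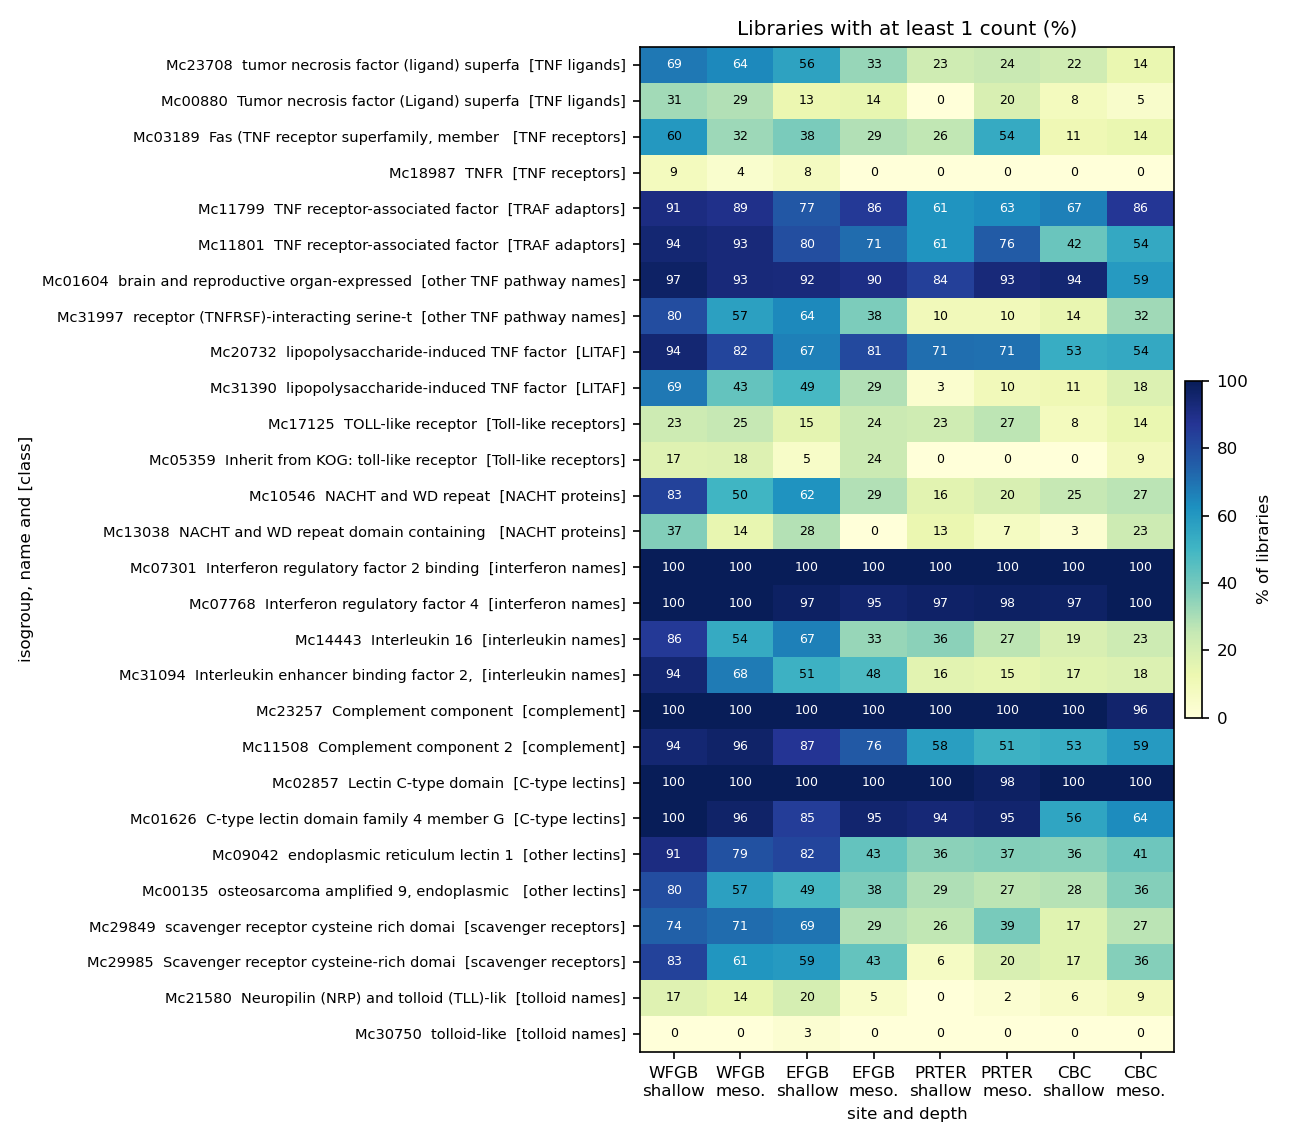
Percent of natural libraries with at least 1 count for the 2 most often counted members of each of 14 classes, by site and depth. Mcavernosa07301 and Mcavernosa23257 were counted in 253 and 252 of 253 libraries, while Mcavernosa10546 ran from 82.9% at shallow WFGB to 16.1% at shallow PRTER and the Toll-like receptor Mcavernosa17125 stayed at or below 26.8%.

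Mcavernosa07301 was high in nearly every library. In shallow libraries it ran from 1900 to 14400 CPM at WFGB with a median of 8560, from 520 to 16700 at EFGB with a median of 7900, from 2660 to 28900 at PRTER with a median of 8280, and from 10.7 to 33700 at CBC with a median of 4290. In mesophotic libraries it ran from 2490 to 18100 CPM at WFGB with a median of 8740, from 1540 to 14500 at EFGB with a median of 6030, from 228 to 37700 at PRTER with a median of 11500, and from 12.3 to 20400 at CBC with a median of 9010. All 8 groups overlapped, and the lowest libraries were those of CBC. The complement component Mcavernosa23257 had medians of 5600 CPM shallow and 5820 mesophotic at WFGB, with 5270 and 4490 for EFGB, 4620 and 6100 for PRTER and 2410 and 4860 for CBC. Its groups overlapped as well, and single libraries reached 48900 CPM at shallow PRTER and 0 at mesophotic CBC. Mcavernosa07768, interferon regulatory factor 4, was less even, with medians of 981 CPM shallow and 753 mesophotic at WFGB, with 1020 and 25.8 for EFGB, 39.1 and 129 for PRTER and 71.9 and 152 for CBC. Mcavernosa02857, the lectin C-type domain isogroup, had medians of 978 and 687 CPM at WFGB, with 794 and 33.2 for EFGB, 60.8 and 58.4 for PRTER and 71 and 94.6 for CBC. For both of these the shallow libraries of WFGB and EFGB and the mesophotic libraries of WFGB stood high, and mesophotic EFGB stood with PRTER and CBC.

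**Figure D3:**
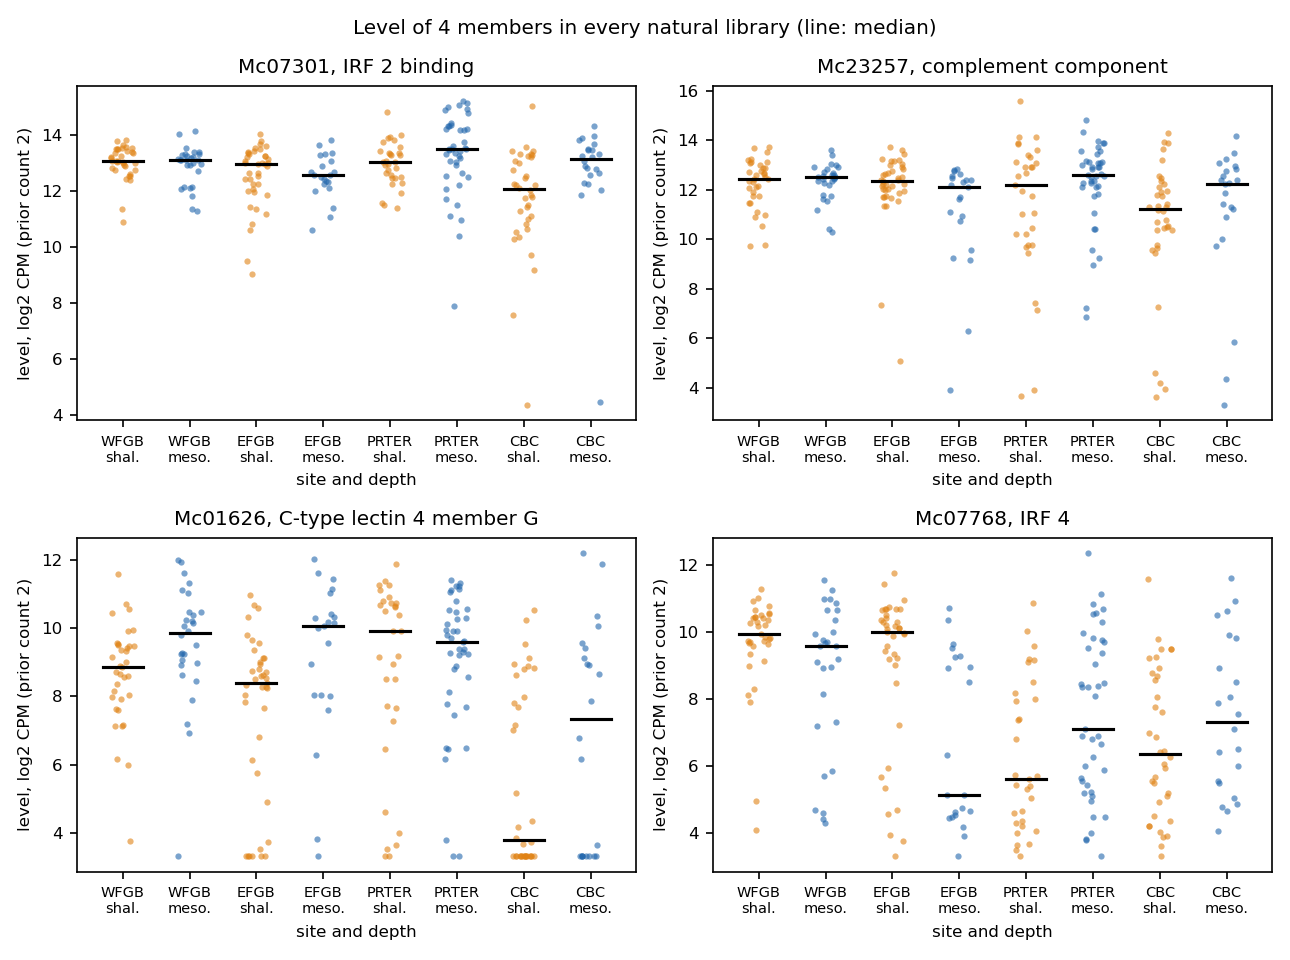
Level of Mcavernosa07301, Mcavernosa23257, Mcavernosa01626 and Mcavernosa07768 in every natural library, as log2 CPM with a prior count of 2, by site and depth, with lines at the medians. A library without a count sits at 3.30, and every pair of groups overlaps in each panel.

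Members also varied together to different degrees. Over the 14 members counted in most libraries, 91 pairs had a median Spearman correlation of 0.24 over all natural libraries and 0.19 within site and depth, where the range was -0.07 to 0.75. Within site and depth the closest pairs were Mcavernosa02857 with Mcavernosa09042 at 0.75 and Mcavernosa02857 with Mcavernosa07768 at 0.74. These isogroups also went with the number of detected isogroups, at 0.68 for Mcavernosa02857, 0.65 for Mcavernosa07768 and 0.67 for Mcavernosa09042 within site and depth. The same correlation was 0.12 for Mcavernosa07301, 0.11 for Mcavernosa23257 and 0.22 for Mcavernosa01626. All points of a pair come from the same libraries, and these correlations are descriptions.

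Differences were tested with edgeR's quasi-likelihood fit across all host isogroups counted in at least 10% of libraries, 6629 in the natural libraries, with Benjamini-Hochberg adjustment and a threshold of 0.05. A fit of log2 CPM with limma was run beside it. The edgeR fit called a large share of all isogroups in several contrasts, and limma called fewer in most of them. Limma called more between WFGB and EFGB, at 25.8% against 22.3%, and between sites the shares were 72.4% and 78.9%. For depth at PRTER, isogroups called by edgeR alone had a median of 28.0% of their counts in 1 library. Those called by limma had 10.5%, and all isogroups tested had 20.9%. For depth at WFGB the values of the calls by edgeR alone and by limma were 25.7% and 25.8%. Words of direction are used below for members past both thresholds. Members past one of them are given with the test named. All values are log2 differences with their standard errors, on each tool's own scale, and the limma scale draws isogroups with many empty libraries toward 0.

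Sites differed for most members. Between sites, averaged over depths, edgeR called 52 of 69 members, beside 78.9% of all isogroups, and limma called 53, beside 72.4%. Both called 47, beside 60.1% of all isogroups. The members' share lay near the background in edgeR. With detected isogroups as a covariate limma kept 16 of 69 members, beside 13.5% of all isogroups. Past all 3 fits were 15 members. They included Mcavernosa01626 with an adjusted p of 0.000322 in the covariate fit, Mcavernosa09042 with 0.00362, Mcavernosa11508 with 0.0073, Mcavernosa02857 with 0.00862, the interferon-related developmental regulator Mcavernosa24700 with 0.0156 and Mcavernosa07301 with 0.0232. CLEC4G, Mcavernosa01626, had counts in 62 of 63 libraries of WFGB with a median of 597 CPM, in 53 of 60 of EFGB with 383 CPM, in 68 of 72 of PRTER with 778 CPM, and in 34 of 58 of CBC with 9.33 CPM. Its mean log2 CPM was 9.04 ± 1.68 (SD, n = 63), 8.10 ± 2.53 (SD, n = 60), 8.86 ± 2.42 (SD, n = 72) and 6.02 ± 2.93 (SD, n = 58) in that order. CBC was thus lowest, and PRTER had the highest median.

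Complement component 2 (Mcavernosa11508) had medians of 118 CPM at WFGB, 24 at EFGB, 2.48 at PRTER and 6.61 at CBC, and the developmental regulator Mcavernosa24700 had 165, 79.5, 31.2 and 0. Mcavernosa02857 stood at 856 CPM at WFGB, 457 at EFGB, 59.9 at PRTER and 75.4 at CBC. Mcavernosa07301 had 8730, 6440, 10000 and 5920 CPM in that order of sites. The kinase RIPK1 (Mcavernosa31997) was counted in 44 of 63 libraries at WFGB, 33 of 60 at EFGB, 7 of 72 at PRTER and 12 of 58 at CBC, with an adjusted p of 0.0376 in the covariate fit. The LITAF isogroup Mcavernosa31390 was counted in 36, 25, 5 and 8 libraries of those sites. WFGB was the site of highest detection for 56 of 69 members, 81.2%, beside 86.2% of all tested isogroups. Class by class, edgeR and limma each called 9 and 8 of 9 complement isogroups, 7 and 7 of 8 interferon names, 8 and 9 of 11 TRAF adaptors, and 4 and 4 of 8 scavenger receptors, beside the 78.9% and 72.4% of all isogroups. With detected isogroups as a covariate limma called 1 of 9 complement isogroups, 3 of 8 interferon names, 2 of 11 TRAF adaptors and 1 of 8 scavenger receptors, beside 13.5%. The single Toll-like receptor tested was called by neither. No label states a preparation batch. By the barcode pairs in library names, PRTER shared no run with WFGB or EFGB. All CBC libraries were taken as a single run by their site, although barcode pairs repeat among them. Site and run, as inferred here, can therefore not be told apart for PRTER and CBC. Titles that hold a date name different campaigns at CBC, at PRTER and at WFGB and EFGB. Site and time of collection can thus not be told apart for PRTER and CBC either.

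Averaged over the sites, no member passed both tests between depths. The edgeR fit called 12 of 69 members, beside 21% of all isogroups. Of these, 6 were higher in mesophotic libraries, beside 6.5%, and 6 were lower, beside 14.5%. The limma fit called 0 members, beside 0.543% of all isogroups, and 14 members had an unadjusted p under 0.05 in it. The median difference over members in limma was -0.11, against -0.13 over all isogroups. The edgeR calls included Mcavernosa20760, an interferon-induced guanylate-binding protein, at -2.94 ± 0.47 with a count in 40 of 112 mesophotic and 71 of 141 shallow libraries. Its limma difference was -0.31 with an adjusted p of 0.395, and 35.7% of its counts lay in 1 library. TRAIL (Mcavernosa23708) had -1.62 ± 0.42 in edgeR with an adjusted p of 0.00163 and -0.52 in limma with 0.296. The TRAF isogroup Mcavernosa18590 had 1.45 ± 0.37 in edgeR and 0.11 in limma with an adjusted p of 0.829. In libraries of at least 50000 host counts limma called 8 of 61 members, beside 10.1% of all isogroups. One of them, CLEC4G (Mcavernosa01626), was higher in mesophotic libraries by that fit. The 7 lower ones were Mcavernosa02279, Mcavernosa02857, Mcavernosa09042, Mcavernosa13549, interleukin 16 (Mcavernosa14443), Mcavernosa19856 and TRAIL (Mcavernosa23708).

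CLEC4G (Mcavernosa01626) was the one member called between depths by edgeR that also passed limma once detected isogroups entered the fit. It had a count in 100 of 112 mesophotic libraries with a median of 666 CPM and in 117 of 141 shallow libraries with a median of 354 CPM. At WFGB its shallow libraries ran from 3.68 to 3100 CPM with a median of 459 and the mesophotic ones from 0 to 4100 with a median of 920. At EFGB shallow libraries ran from 0 to 2030 CPM with a median of 323 and mesophotic ones from 0 to 4180 with a median of 1070. At CBC shallow libraries ran from 0 to 1480 CPM with a median of 4 and mesophotic ones from 0 to 4760 with a median of 162. At PRTER the order was the other way, with medians of 958 CPM shallow and 773 mesophotic. All groups overlapped. The mean difference was 0.95 ± 0.27 in edgeR with an adjusted p of 0.00395 and 1.05 ± 0.31 in limma with 0.10. The limma value was 1.27 ± 0.30 with an adjusted p of 0.0214 when detected isogroups entered as a covariate, where 8 isogroups of 6629, or 0.121%, were called. In libraries of at least 50000 host counts it was 1.35 ± 0.42 with 0.0284. Per site, edgeR gave 1.30 ± 0.53 at WFGB with an adjusted p of 0.131, 1.69 ± 0.54 at EFGB with 0.0126, -0.60 ± 0.49 at PRTER with 0.379 and 1.41 ± 0.55 at CBC with 0.0337.

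A group of 48 natural libraries, all shallow and from WFGB or EFGB, carried X-14 in the title, read as a collection campaign, while no mesophotic library did. Campaign and depth were thus partly confounded at these sites, and the values of CLEC4G were set side by side by kind of title. Among libraries whose titles hold a code and no date, and which are not known to share a campaign, the median of Mcavernosa01626 was 1180 CPM in 21 mesophotic and 697 CPM in 11 shallow libraries of WFGB, and 1110 CPM in 16 mesophotic and 193 CPM in 4 shallow libraries of EFGB. Among libraries with V-16 in the title, it was 227 CPM in 7 mesophotic and 180 CPM in 2 shallow libraries of WFGB, and 221 CPM in 4 mesophotic and 23.8 CPM in 10 shallow libraries of EFGB. Mesophotic medians were thus the higher ones in each of the 4 pairs. Without the X-14 libraries the limma difference over sites was 1.51 ± 0.38 with an adjusted p of 0.0779.

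At EFGB the members followed the background of all isogroups. The edgeR fit called 17 members, beside 29.9% of all isogroups. Of these, 4 were higher, beside 9.20%, and 13 lower, beside 20.7%. Limma called 10, all lower, beside 16.6% of all isogroups and 16% lower. Both called 5, all lower, beside 9.52% of all isogroups in that direction. The members' median in limma was -0.45, the same as over all isogroups. Interleukin 16 (Mcavernosa14443) was counted in 26 of 39 shallow libraries with a median of 40.8 CPM and in 7 of 21 mesophotic libraries, and was lower by edgeR at -3.67 ± 0.87 with an adjusted p of 0.000832 and by limma at -1.52 ± 0.37 with 0.006. The scavenger receptor isogroups Mcavernosa13549 and Mcavernosa29849 were counted in 26 and 27 of 39 shallow but in 3 and 6 of 21 mesophotic libraries. Their limma differences were -1.34 ± 0.32 with an adjusted p of 0.00507 and -1.34 ± 0.40 with 0.0169. The complement isogroup Mcavernosa14312 was counted in 30 of 39 and 10 of 21 libraries, with a limma difference of -1.48 ± 0.43 and an adjusted p of 0.016. The Fas binding factor Mcavernosa19856, a protein of the cilium base in mammals, was counted in 23 of 39 and 3 of 21 libraries, with -1.20 ± 0.29 and 0.00545.

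Past the limma threshold alone at EFGB were interferon regulatory factor 4 (Mcavernosa07768) at -2.27 ± 0.61 with an adjusted p of 0.011, the NACHT isogroup Mcavernosa10546 at -1.75 ± 0.53, Mcavernosa09042 at -1.75 ± 0.54, Mcavernosa02857 at -1.69 ± 0.55 and complement component 2 (Mcavernosa11508) at -1.11 ± 0.41. The first of these had a median of 16.3 CPM in 16 mesophotic libraries with a code and no date in the title and 1210 CPM in 4 shallow ones. It had 483 CPM in 4 mesophotic and 324 CPM in 10 shallow libraries of V-16, so that its order turned between these sets of libraries. Detected isogroups moved with this contrast, as given above, at a median of 3570 in shallow and 1782 in mesophotic libraries. With that number as a covariate limma called 0 members at EFGB, beside 0.0754% of all isogroups, and all 10 differences were nearer 0. The edgeR fit with the same covariate called 9 of 69, beside 22.2% of all isogroups, with 8 higher and 1 lower, so that its split of directions turned. Without X-14 limma called 1, CLEC4G (Mcavernosa01626), higher at 3.52 ± 0.87 with an adjusted p of 0.0256, beside 0.631% of all isogroups. In libraries of at least 50000 counts limma called 0, beside 0.322%, and 12 members had an unadjusted p under 0.05.

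**Figure D4:**
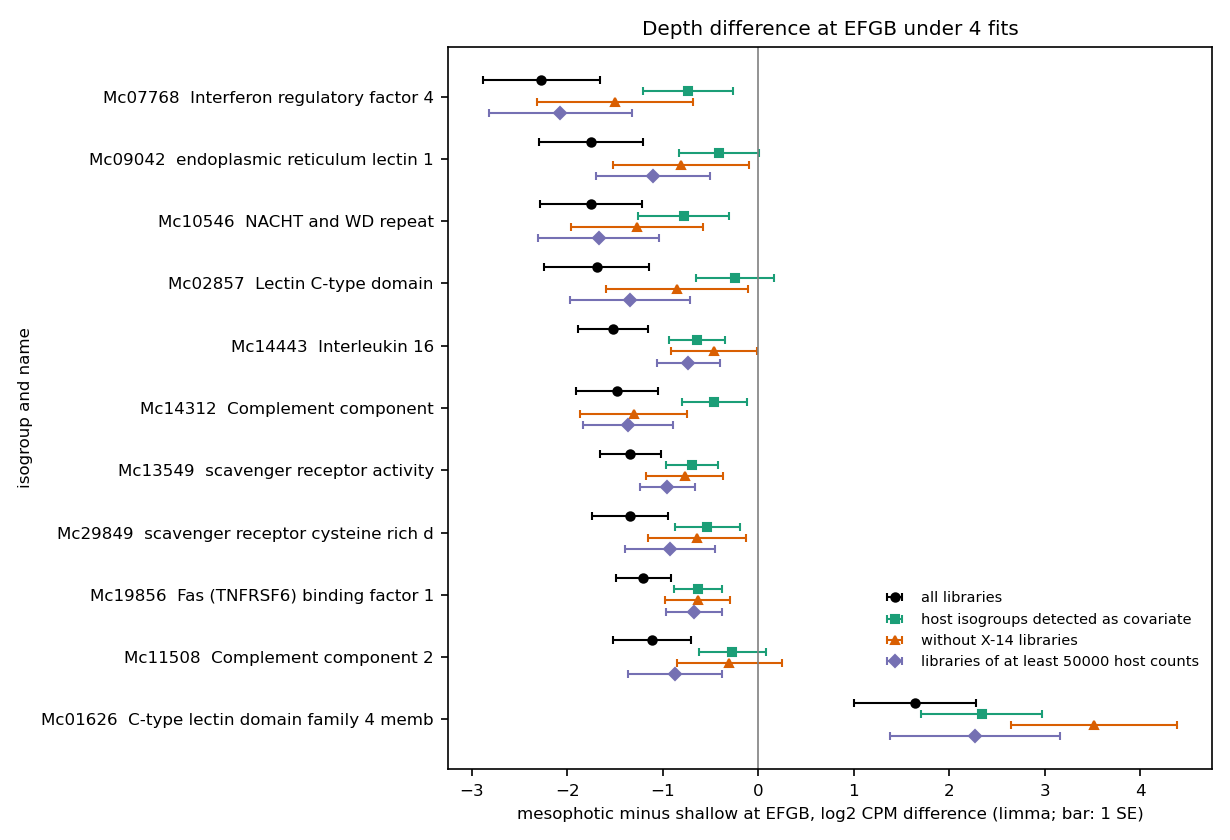
Difference between mesophotic and shallow libraries of EFGB in log2 CPM by limma, with bars of 1 SE, for the 10 members past its threshold and Mcavernosa01626, in 4 fits. The 10 members move toward 0 when detected isogroups enter the fit, and Mcavernosa01626 is above 0 in all 4 fits.

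The other sites gave no member past both thresholds between depths. At WFGB edgeR called 1, the TRAF isogroup Mcavernosa11795 at 4.06 ± 1.02 with an adjusted p of 0.00438, beside 6.32% of all isogroups and 4.96% higher. Its limma difference was 0.51 with an adjusted p of 0.369. Limma called 0 members there, beside 0.573%, with 7 at an unadjusted p under 0.05, but in libraries of at least 50000 counts it called 11 members, all lower in mesophotic libraries, beside 20.9% of all isogroups. At PRTER edgeR called 24 members, beside 33.4% of all isogroups, 15 of them higher, beside 17.7%, and 9 lower, beside 15.6%. Limma called 0, beside 0.603%, with 5 at an unadjusted p under 0.05. Mcavernosa11795 came closest there, counted in 14 of 41 mesophotic and 3 of 31 shallow libraries, at 5.75 ± 0.99 in edgeR with an adjusted p of 9.06e-07 and 0.89 ± 0.25 in limma with 0.0555. The LITAF isogroup Mcavernosa20732 had opposite signs in the tests at PRTER, -1.84 ± 0.65 in edgeR and 0.93 ± 0.70 in limma, with a median of 343 CPM in mesophotic and 4.96 CPM in shallow libraries and a highest shallow library of 14400 CPM. At CBC edgeR called 20 members, beside 34.9% of all isogroups, 10 of them higher, beside 13.7%, and 10 lower, beside 21.2%. Limma called 0, beside 0.241%, with 7 at an unadjusted p under 0.05. The edgeR call with the smallest p at CBC, the NACHT isogroup Mcavernosa13038 at 6.21 ± 0.89, had 85.0% of its counts in 1 library and an adjusted p of 0.425 in limma.

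Whether the difference between depths itself varied by site was tested as an interaction. The edgeR fit called 38 of 69 members, beside 58.1% of all isogroups, limma called 5, beside 6.43%, and both called 4, beside 5.14%. Interferon regulatory factor 4 (Mcavernosa07768) passed both, with adjusted p of 0.00909 in edgeR and 0.00913 in limma. Its limma differences were -0.94 ± 0.57 at WFGB, -2.27 ± 0.61 at EFGB, 1.21 ± 0.54 at PRTER and 0.83 ± 0.61 at CBC. With detected isogroups as a covariate limma called 0 members, beside 0.407%.

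The sites WFGB and EFGB, which also held the experiment, were compared directly over both depths. Of 69 members, edgeR called 13, 3 higher and 10 lower at EFGB, beside 22.3% of all isogroups, of which 6.65% were higher and 15.6% lower. Limma called 18, all lower, beside 25.8% of all isogroups and 25.4% lower. Both called 8, all lower, beside 10.8% of all isogroups in that direction. Complement component 2 (Mcavernosa11508) was lower at EFGB, at -1.28 ± 0.41 in edgeR with an adjusted p of 0.0158 and -1.21 ± 0.28 in limma with 0.00134. The second isogroup of that name, Mcavernosa15704, was counted in 23 of 63 libraries at WFGB and 8 of 60 at EFGB, with a limma difference of -0.51 and an adjusted p of 0.00423. The TNF ligand Mcavernosa00880, the scavenger receptors Mcavernosa14361, Mcavernosa29849 and Mcavernosa13549, the interferon regulatory factor Mcavernosa02277 and interleukin 16 (Mcavernosa14443) made up the rest, with limma differences between -0.49 and -0.83. Like-named isogroups with neighbouring numbers, such as these interferon regulatory factors, scavenger receptors and TNF ligands, may share tags, and their single values are uncertain. The members' median difference in limma was -0.47, against -0.34 over all isogroups. Detected isogroups moved with this contrast too, as given above for each depth. With them as a covariate limma called 0 members, beside 0.226% of all isogroups. Without X-14 limma called 13 of 62 members, beside 15.0%.

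In the experiment 76 members were counted in at least 10% of the 69 libraries and were tested among 7161 isogroups. The limma fit called 0 members in every contrast of arm and time, beside 0.0838% of all isogroups between times, 0.0140% for transplants against either control at time 12 and 0.00% in the other contrasts. The calls below are those of edgeR alone, and no member passed both tests. Transplants were compared with mesophotic controls, shallow controls and their own earlier level.

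The titles of 2 transplants of EFGB at time 6 name another campaign than those of the other libraries of time 6. All libraries of time 12 carry IX-16 in the title, and all other libraries of time 6 carry V-16. These 2 are labelled time 6 but carry IX-16, while the natural libraries of the same colonies, used as baselines, carry V-16. Label and title can both hold if time counts from each colony's own start, since these colonies were at baseline in V-16. What the time labels count from is not given. Time and campaign otherwise coincide, so that a difference between the times and one between campaigns cannot be told apart. Each contrast was therefore fitted again without these colonies, in 65 libraries and 73 members, and the values are given where they differ. In that fit limma again called 0 members in every contrast, beside at most 0.142% of all isogroups.

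At time 6 edgeR called 0 of 76 members between transplants and mesophotic controls, beside 2.56% of all isogroups, with 15 members at an unadjusted p under 0.05 in edgeR and 2 in limma. Against shallow controls it called 4, all higher in transplants, beside 7.95% of all isogroups and 6.27% higher. They were the scavenger receptor isogroups Mcavernosa30988 and Mcavernosa14355, the isogroup named lectin, mannose-binding 1 (Mcavernosa04561), and interferon regulatory factor 1 (Mcavernosa02277). Of these Mcavernosa14355 had 95.5% of its counts in 1 library. The other 3 calls were lost when 1 of the IX-16 transplants of time 6 was left out. Without one of them Mcavernosa02277 went to an adjusted p of 0.589 and Mcavernosa04561 to 0.0757, and without the other Mcavernosa30988 went to 0.317. Without both colonies edgeR called 0 members of this contrast, beside 2.16% of all isogroups, with 8 at an unadjusted p under 0.05 in edgeR and 1 in limma. The differences were then -0.15 ± 0.46 for Mcavernosa02277, -0.05 ± 0.63 for Mcavernosa04561 and 3.37 ± 1.63 for Mcavernosa30988, and Mcavernosa14355 was not tested. At time 12 it called 1 member against mesophotic controls, the TRAF isogroup Mcavernosa11799, lower in transplants, beside 0.894% of all isogroups and 0.768% lower. Against shallow controls it called 8, beside 8.14%, with 1 higher, beside 3.14%, and 7 lower, beside 5%. Among these, the TRAF6 isogroup Mcavernosa27200 went to an adjusted p of 0.761 without a transplant of EFGB, and Mcavernosa29849 to 0.376 without a shallow control of EFGB. Mcavernosa10546, Mcavernosa23708, Mcavernosa11793 and Mcavernosa04561 were also lost when 1 library was left out, and stayed past the threshold in 30, 39, 40 and 43 of 45 such fits. Mcavernosa11799 and Mcavernosa24700 did so in all 45. Between mesophotic and shallow controls it called 1, lower in mesophotic controls, beside 1.98% of all isogroups and 0.726% lower. That was the complement C1q binding protein Mcavernosa26121, which in mammals is found mainly in mitochondria. Its adjusted p reached 1.0 when 1 shallow control of EFGB was left out.

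Mcavernosa11799 had baseline values of 137 to 978 CPM in transplants with a median of 383. At time 6 its transplant values ran from 0 to 825 CPM with a median of 5.86 and a count in 5 of 8 libraries. Without the IX-16 transplants of time 6 they ran from 0 to 65.8 CPM with the same median and a count in 4 of 6. At time 12 the transplants held 0, 0, 4.1, 4.68 and 11.0 CPM. Mesophotic controls had a median of 56.5 CPM at baseline, 218 at time 6 and 480 at time 12, when they ran from 0 to 1950, and shallow controls had 79.6, 74.9 and 290 CPM, with a range of 8.57 to 1850 at time 12. The transplants of time 12 thus lay below all 7 transplant baselines, and their range overlapped with that of both controls. Only 3 of the 5 have a retained baseline of the same colony, and these went from 978 to 4.1, from 644 to 11.0 and from 334 to 4.68 CPM. The difference from mesophotic controls at time 12 was -6.62 ± 1.77 in edgeR with an adjusted p of 0.0459 and -4.40 ± 1.40 in limma with 0.164. From shallow controls it was -6.78 ± 1.75 with 0.024 and -4.32 ± 1.28 with 0.314. The change from baseline to time 12 beyond that of the mesophotic controls was -7.44 ± 2.04 in edgeR with 0.0319 and -7.10 ± 1.84 in limma with 0.0704, and with colony as a fixed block it was -8.57 ± 2.46 with 0.129. The difference from mesophotic controls stayed past the threshold in 37 of 45 fits that each left out 1 library. It was lost without any 1 of the 5 transplants of time 12, or without the mesophotic control of EFGB or either of 2 mesophotic controls of WFGB at that time, with adjusted p up to 0.114. Without the colonies of the IX-16 transplants of time 6 it was -6.43 ± 1.71 in edgeR with 0.0452. The transplant library that was left out for its low total, with 15536 host counts, held 708 CPM of this isogroup.

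Over all 76 members the median edgeR difference of transplants at time 12 was -1.85 from mesophotic and -1.12 from shallow controls, beside -1.46 and -1.22 over all isogroups. Most members lay below 0, with 24 above 0 from either control in edgeR and 14 and 12 in limma. The limma medians were -0.69 and -0.39, beside -0.5 and -0.38 over all isogroups. Among those above 0 in edgeR, the 3 LITAF isogroups had medians of 0.98 and 1.16, and Fas (Mcavernosa03189) had 1.06 and 1.39. The 5 other TNF pathway names had 1.99 and 3.57, and none of all these was called. Mcavernosa24700 was counted in 2 of 5 libraries with 2.74 CPM at most, against medians of 149 CPM in mesophotic and 166 CPM in shallow controls. Its edgeR difference from shallow controls was -7.03 ± 1.91 with an adjusted p of 0.024, and the limma difference was -3.34 with 0.378. The lectin C-type domain isogroup Mcavernosa02857 was not called, with transplant medians of 1080 CPM at baseline, 174 at time 6 and 37.4 at time 12 and medians of 509, 114 and 828 CPM in mesophotic controls. Interferon regulatory factor 4 (Mcavernosa07768) had 1320, 254 and 69.2 CPM in transplants and 445, 205 and 1150 in mesophotic controls. Of the change beyond mesophotic controls by time 12, edgeR called 4 members, all lower, beside 2.47% of all isogroups and 1.69% lower: TRAIL (Mcavernosa23708), Mcavernosa11799, Mcavernosa22649 and the complement isogroup Mcavernosa14312. TRAIL and Mcavernosa14312 had a count in 1 of 5 transplants each at that time. Without the colonies of the IX-16 transplants of time 6 Mcavernosa14312 had an adjusted p of 0.088 in edgeR, and the other 3 were called. With colony as a fixed block edgeR called 0 members of this change. By time 6 edgeR called 0 members of the same change, beside 0.0559%, with 9 at an unadjusted p under 0.05 in edgeR and 4 in limma. Detected isogroups moved with the arm at time 12, at medians of 1633 in transplants, 4096 in mesophotic and 3221 in shallow controls, and members with a count at 15, 44 and 37. The transplants thus showed fewer members and fewer isogroups of any kind. With detected isogroups as a covariate edgeR called 3 members at time 12 against mesophotic controls, all lower, beside 2.07% of all isogroups. It called 11 against shallow controls, 3 higher and 8 lower, beside 9.90%, and 2 of the change beyond mesophotic controls, both lower, beside 1.19%. The share of symbiont counts moved with the arm too. Its median at time 12 was 0.55% in transplants with a range of 0.403% to 13.8%, against 11.1% in mesophotic controls with a range of 6.78% to 13.0% and 8.71% in shallow controls with a range of 1.75% to 14.6%. Its part in these differences was not tested.

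Between the times, averaged over arms, edgeR called 9 members, beside 7.25% of all isogroups, with 8 higher at time 12, beside 3.81%, and 1 lower, beside 3.44%. They included the most abundant ones. Mcavernosa07301 had medians of 8520 CPM at baseline, 2720 at time 6 and 7250 at time 12 in transplants, 8860, 5690 and 8420 in mesophotic controls, and 8080, 1880 and 8580 in shallow controls. The shallow controls of time 6 ran from 11.5 to 3190 CPM and overlapped with neither their baselines, from 3990 to 11500, nor time 12, from 4490 to 17900. The edgeR difference of time 12 from time 6 was 1.22 ± 0.37 with an adjusted p of 0.0248, and that of limma was 1.27 ± 0.47 with 0.41. The complement component Mcavernosa23257 had medians of 5380, 4250 and 9600 CPM in transplants, 2930, 3980 and 6550 in mesophotic controls and 6980, 2710 and 8690 in shallow controls. Its differences were 1.31 ± 0.36 with an adjusted p of 0.0129 in edgeR and 1.21 ± 0.43 with 0.361 in limma. Without the colonies of the IX-16 transplants of time 6 edgeR called 8 members, all higher at time 12, beside 6.97% of all isogroups. Mcavernosa07301 then had medians of 8740, 1400 and 7250 CPM in transplants and a difference of 1.55 ± 0.39 with 0.00588 in edgeR, and Mcavernosa23257 had 1.43 ± 0.38 with 0.0101. Leaving out a transplant of EFGB at time 12 brought Mcavernosa07301 to 0.0504, and leaving out a mesophotic control of WFGB brought Mcavernosa23257 to 0.0677. Of the other 7 members called, Mcavernosa13549, Mcavernosa14258, Mcavernosa15332, the Toll-like receptor Mcavernosa17125 and the TRAF isogroup Mcavernosa18590 reached an adjusted p of 1.0 when 1 library was left out. Mcavernosa31390 reached 0.102, and the TRAF isogroup Mcavernosa18606 stayed past the threshold in 45 of 45 such fits, at 0.00866 or below. With colony as a fixed block edgeR called 0 members between the times, with adjusted p of 0.228 for Mcavernosa07301 and 0.171 for Mcavernosa23257. The Toll-like receptor Mcavernosa17125 was counted in 0 of 8 transplants, 1 of 7 mesophotic and 0 of 10 shallow controls at time 6, and in 1 of 5, 1 of 6 and 3 of 9 at time 12. Detected isogroups had medians of 2392.5, 2684 and 1485 in the 3 arms at time 6.

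**Figure D5:**
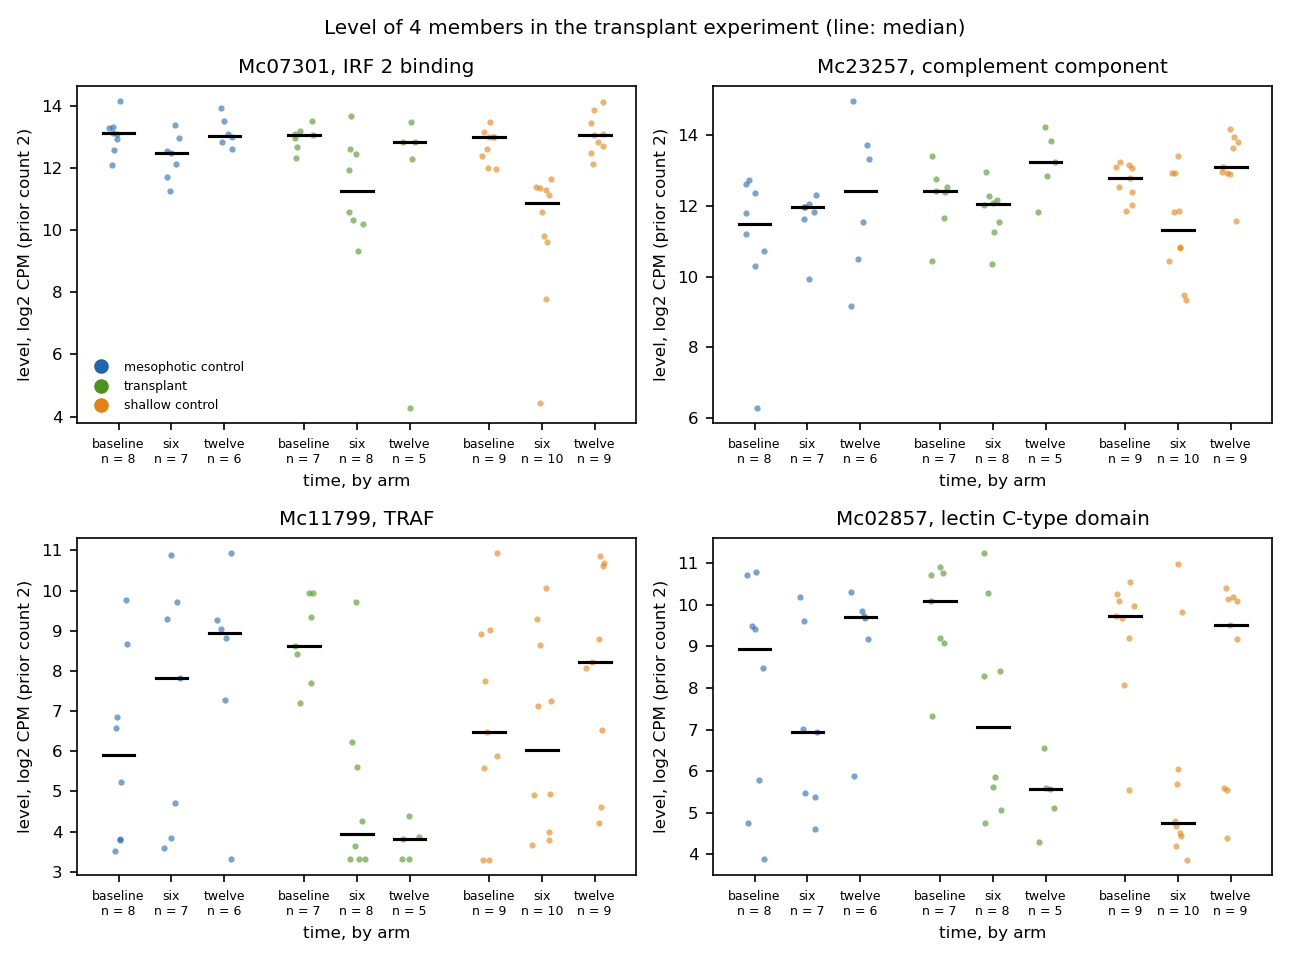
Level of Mcavernosa07301, Mcavernosa23257, Mcavernosa11799 and Mcavernosa02857 in every library of the experiment, as log2 CPM, by arm and time, with lines at the medians. Mcavernosa11799 and Mcavernosa02857 lie low in transplants at time 12, and Mcavernosa07301 lies low in shallow controls at time 6, with a median of 1880 CPM.

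Other innate immune names were described as a list of 68 host isogroups that are not members, taken by words such as caspase, STING, STAT, jun, lysozyme, perforin and leucine-rich repeat. Of these, 29 were tested in the natural libraries. Between sites edgeR called 18 of them, beside 78.9% of all isogroups, and limma 20, beside 72.4%, among them a STAT transcription factor (Mcavernosa11785) and caspase 9 (Mcavernosa18425), the initiator of the mitochondrial death pathway. The STING isogroup Mcavernosa09143, an adaptor for cyclic dinucleotides, had adjusted p of 0.0291 in limma and 0.625 in edgeR. Over depths edgeR called 11, 5 higher and 6 lower in mesophotic libraries, beside 21% of all isogroups, and limma called 0, beside 0.543%. At EFGB edgeR called 11, 7 higher and 4 lower, beside 29.9% of all isogroups, and limma called 2, beside 16.6%. Both limma calls were lower, a tight junction protein (Mcavernosa31989) at -2.80 ± 0.68 and junctophilin (Mcavernosa32008), which entered by the letters of jun and are not known as immune genes. Between WFGB and EFGB edgeR called 7, 2 higher and 5 lower at EFGB, beside 22.3% of all isogroups. Limma called 7, all lower at EFGB, beside 25.4% of all isogroups in that direction, among them the jun proto-oncogene (Mcavernosa27934) at -1.16 ± 0.36 and macrophage migration inhibitory factor (Mcavernosa30914) at -0.77 ± 0.30. The jun isogroup passed edgeR too, with an adjusted p of 0.0316. The tight junction protein and junctophilin named above were also among the 7. Between sites the 20 limma calls held both of them, another tight junction protein (Mcavernosa22768) and a DNA repair protein whose description names jun (Mcavernosa34634). In the experiment limma called 0 of 33. There edgeR called 2 between transplants and mesophotic controls at time 6, 1 and 5 between transplants and shallow controls at time 6 and 12, 5 between the times and 0 in the other contrasts, beside 2.56%, 7.95%, 8.14% and 7.25% of all isogroups. The list's median at EFGB was -0.09 in edgeR, against -0.88 over all isogroups, and -0.15 in limma, against -0.45. In limma it was -0.37 between WFGB and EFGB, against -0.34.

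Markers of other tissues were counted in the same libraries. At EFGB limma called, lower in mesophotic libraries, 0 of 2 nematocyte isogroups, 1 of 12 of gland and mucus cells, 2 of 9 of neurons, 1 of 11 of muscle, 0 of 7 of the germ line and 2 of 12 of cilia, beside 16% of all isogroups lower there. By edgeR 6 of the 12 gland and mucus isogroups were lower and 1 higher, with a median of -2.55 against -0.88 over all isogroups. Lower by edgeR were also 1 of 2 of nematocytes, 3 of 9 of neurons, 2 of 11 of muscle, 2 of 7 of the germ line and 2 of 12 of cilia, beside 20.7% of all isogroups. Higher by edgeR were 1 each of nematocytes, neurons and the germ line and 0 of muscle and cilia, beside 9.20% of all isogroups. The gland and mucus list summed to a median of 2977 CPM in shallow and 823 CPM in mesophotic libraries of PRTER, and 2812 and 821 CPM at CBC. It summed to 802 and 924 CPM at WFGB, and 879 and 917 CPM at EFGB. Its part in the members' differences was not tested.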

How the data were processed

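The deposited values were raw counts per isogroup and library, which the authors made with tag-based RNA sequencing scripts named per the labels' protocol. For the aligner, the genome build, read filters and duplicate removal, the tool or setting is not given in the sources used here. Names came from the authors' lookup table, which the design text ties to UniProt. All 311 libraries matched a column of the count table, and 1 further column was empty. No identical columns were found, and the closest pair of libraries had a correlation of 0.6962.

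Host counts were used alone. Libraries under 20000 host counts were left out, as were isogroups counted in under 10% of a fit's libraries. The main test was edgeR 4.0.16 (glmQLFit, robust, TMM scaling) in R 4.3.3, with 1 mean per site and depth over all natural libraries, or 1 mean per arm and time plus site in the experiment. All tests were two-sided, and p-values were adjusted over all isogroups of a fit by the Benjamini-Hochberg method, with a threshold of 0.05. Alternatives were limma 3.58.1 on log2 CPM with a prior count of 2, DESeq2 1.42.0, other scalings and filters, libraries of at least 50000 host counts, detected isogroups as a covariate, barcode run as a term, the natural fit without X-14 libraries, and leaving out each experiment library in turn. The fits without the colonies of the 2 IX-16 transplants of time 6 were added after seeing the data. The edgeR step was run on simulated data before use, and no conclusion about its calls in these counts is drawn from that. Barcode runs and campaigns were inferred from library names and titles. CPM is counts per 1000000 host counts of a library, and counting error alone limits low values.

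Members and lists were chosen with earlier results of these data known. The rule to speak of direction only where edgeR and limma both passed, or to name the test, was chosen after seeing the data. Members are named as the leading calls of each comparison, the 2 most often counted of each class, and the 10 with the highest mean CPM. Colony tags in the titles pair experiment libraries with each other and with baselines. The 58 same-colony pairs had a median correlation of their deviations from the group means of 0.0441, with 15 pairs over 0.1, against -0.00923 for other pairs, and the consensus correlation within colony was 0.0611. Results with colony as a block are given where they change a call. No reference sequence was used here.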

Additional observations from a re-analysis of the deposited data

Results flagged for a closer look

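In the experiment, 84 groups of 5 to 10 libraries of the 14 members counted in most natural libraries were searched for a library far from the others of its group, by Dixon's 95% critical value on log2 CPM, and 12 stood apart. Chance flags about 1 in 20 such groups, but this rate does not hold where several libraries share the floor, as in 32 of the groups with 2 or more empty libraries, 5 of which are among the 12. A library without a count sits at 3.32. Low libraries were Mcavernosa07301 (interferon regulatory factor 2 binding) at 4.27 in a transplant of WFGB at time 12, where the next was 12.28, and Mcavernosa01626 (CLEC4G) at 3.32 in a mesophotic control of WFGB at time 6, where the next was 7.67. The mesophotic control of EFGB at time 12 was low for Mcavernosa02857 at 5.87, with the next at 9.17, and for Mcavernosa07768 at 6.68, with the next at 9.12. The complement component Mcavernosa23257 was low at 9.92 in a mesophotic control of WFGB at time 6 and at 11.58 in a shallow control of EFGB at time 12.

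High libraries were Mcavernosa11799 at 9.71 and Mcavernosa24700 at 9.55 in transplants of EFGB at time 6, with the next at 6.24 and 5.00. The first of these is one of the 2 transplants labelled time 6 that carry IX-16 in the title. One transplant of EFGB at time 12 was high for Mcavernosa09042 at 8.73 and for Mcavernosa14312 at 3.50, where the other 4 held no count, so that any count there stands apart. Mcavernosa24700 was high at 7.96 in a mesophotic control of WFGB at time 6, with the next at 5.09. The mannan-binding lectin serine peptidase Mcavernosa06219 was high at 5.85 in a shallow control of WFGB at time 6, with the next at 4.45.

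The difference between depths varied by site for 4 of 69 members past both edgeR and limma, beside 5.14% of all isogroups. Mcavernosa07768, interferon regulatory factor 4, had an adjusted p of 0.00913 in limma and 0.459 with detected isogroups as a covariate. Mcavernosa19856, the Fas binding factor, had 0.00628 and 0.226, with differences of -0.93 ± 0.27 at WFGB, -1.20 ± 0.29 at EFGB, 0.11 ± 0.25 at PRTER and 0.45 ± 0.29 at CBC. The complement isogroup Mcavernosa14312 had 0.0357 and 0.547, with -0.08 ± 0.40, -1.48 ± 0.43, 0.40 ± 0.38 and 0.74 ± 0.43 in that order. The NACHT isogroup Mcavernosa13038, with 85.0% of its counts in 1 library, had 0.028 and 0.216, with -0.53 ± 0.23, -0.51 ± 0.24, -0.14 ± 0.21 and 0.68 ± 0.24. Without X-14 libraries the limma adjusted p of these members ran from 0.239 to 0.501.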

How the results depend on the processing

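Most counts of called members moved under an alternative, and some values turned their sign. The members' median difference in limma went from -0.23 to 0.04 at WFGB and from -0.11 to 0.03 over sites without X-14. It was -0.06 in edgeR and 0.12 in limma at PRTER, where the signs also differed for Mcavernosa20732, at -1.84 and 0.93. The 10 limma calls at EFGB, all lower, gave way to 1 higher without X-14. Low detection limits what can be said of the 108 members under the 10% limit. Leaving single libraries aside, 138 member counts moved by over 1.5 times. In 133 of these the share of members called and the share of all isogroups called moved the same way. The cause of these moves was not tested. In edgeR the counts were 12 of 69 members for depth over sites, 1 for depth at WFGB, 17 at EFGB, 24 at PRTER, 20 at CBC, 13 between WFGB and EFGB, 38 for depth by site and 52 between sites. In the experiment they were 0 for transplants against mesophotic controls at time 6, 1 at time 12, 4 against shallow controls at time 6, 8 at time 12, 1 between controls, 9 between times, and 0 and 4 for the change beyond mesophotic controls by time 6 and time 12. Values below are those that moved by over 1.5 times. Libraries of natural groups numbered over 10 and were not left out singly.

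With limma they were 0 for depth over sites, WFGB, PRTER and CBC, 10 at EFGB, 5 for depth by site, and 0 for the contrasts of transplants at time 12, of transplants with shallow controls at time 6, of controls, of times and of the change by time 12. With detected isogroups as a covariate limma gave 1 for depth over sites, 16 between sites, and 0 for depth at each site, WFGB against EFGB, depth by site and the experiment's contrasts. Without X-14 limma gave 0 for depth over sites, WFGB, PRTER, CBC and depth by site and 1 at EFGB. With the covariate and without X-14 it gave 1 for depth over sites, EFGB and WFGB against EFGB. It gave 16 between sites, and 0 for WFGB, PRTER, CBC and depth by site. Each 1 was 1.61% of members, beside 0.105%, 0.386% and 0.702% of all isogroups, and the 16 were 25.8%, beside 17.3%. With barcode run as a term limma gave 0 over sites, 9 at EFGB, and 0 at PRTER and CBC. The 9 were 13.0% of members, beside 11.4% of all isogroups. In libraries of at least 50000 counts limma gave 11 at WFGB, 0 at EFGB, PRTER and CBC and 23 between WFGB and EFGB. It gave 4 for depth by site and 0 in the experiment. The 11, 23 and 4 of 61 members stand beside 20.9%, 31.3% and 9.38% of all isogroups. The limma fits without X-14, with barcode run and in deeper libraries were added after seeing the data.

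Of edgeR's own settings, the filterByExpr filter gave 7 over sites, 9 at PRTER, 23 for depth by site and 34 between sites. It gave 4 and 6 for transplants against mesophotic controls at time 6 and 12, 3 between controls and 1 for the change by time 6. It tested fewer members, so that a count could fall while its share rose. The 34 between sites were 85.0% of members tested, beside 79.0% of all isogroups, against 75.4% and 78.9% in the main fit. The 23 for depth by site were 57.5%, beside 65.4%, against 55.1% and 58.1%. The 7 and 9 were 17.5% and 22.5%, beside 25.4% and 33.4%. The 4, 6, 3 and 1 were 10.3%, 15.4%, 7.69% and 2.56%, beside 10.7%, 11.2%, 4.02% and 1.31%. No filter gave 6 at WFGB and 1 for the change by time 12. It gave 0 for transplants against mesophotic controls at time 12 and against shallow controls at both times. The 6 and 1 were 3.43% and 0.685% of members, beside 5.16% and 0.43% of all isogroups. Libraries of at least 50000 counts gave 7 over sites, 0 at WFGB, 9 at EFGB, 0 for transplants at time 12 against either control, 2 against shallow controls at time 6, and 0 between controls and for the change by time 12. Without X-14 edgeR gave 5 over sites, 0 at WFGB, 4 at EFGB, 4 between WFGB and EFGB and 22 for depth by site. Those above 0 were 8.06%, 6.45%, 6.45% and 35.5% of members, beside 10.3%, 13.7%, 5.05% and 42.4% of all isogroups. Barcode run as a term gave 7 over sites, 0 at WFGB, 7 at EFGB and 7 between WFGB and EFGB. Each 7 was 10.1% of members, beside 18.4%, 15.4% and 10.6% of all isogroups in that order. The covariate in edgeR gave 2 at WFGB, 9 at EFGB and 3 for transplants against mesophotic controls at time 12. It gave 1 against shallow controls at time 6, 0 between controls and 2 for the change by time 12. Those above 0 were, in that order, 2.9%, 13.0%, 3.95%, 1.32% and 2.63% of members. All isogroups stood at 4.84%, 22.2%, 2.07%, 5.93% and 1.19%. RLE scaling gave 5 at WFGB, 2 and 5 for transplants against mesophotic controls at time 6 and 12, and 4 between controls. These were 7.25%, 2.63%, 6.58% and 5.26% of members, beside 11.1%, 4.87%, 2.56% and 2.82% of all isogroups. TMMwsp gave 4 at WFGB and 2 for transplants against mesophotic controls at time 12. These were 5.8% and 2.63% of members, beside 14.0% and 1.13% of all isogroups. Scaling by library total gave 0 and 5 in these contrasts and 2 between controls. The 5 and 2 were 6.58% and 2.63%, beside 2.78% and 1.48%. Without baseline libraries WFGB had 2, or 2.94% of members, beside 7.86%. The older quasi-likelihood method gave 13 at CBC, 3 and 0 for transplants against mesophotic controls at time 6 and 12, 2 and 17 against shallow controls, 2 between controls, and 1 and 11 for the change by time 6 and 12.

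DESeq2 gave 4 over sites, 2 at WFGB, 7 at EFGB, 9 at PRTER, 9 at CBC and 1 between WFGB and EFGB. In the experiment it gave 5 and 10 for transplants against mesophotic controls at time 6 and 12. It gave 2 against shallow controls at time 6, 2 between controls and 5 between times. For the change by time 6 and 12 it gave 2 and 8. The natural counts, in that order, were 7.41%, 9.52%, 11.9%, 16.1%, 18.8% and 1.69% of the fewer members it tested. All isogroups stood at 10.4%, 9.89%, 13.4%, 17.1%, 23.3% and 4.22%. Those of the experiment were 9.62%, 19.2%, 4.26%, 3.85%, 10.2%, 3.28% and 16.0%. All isogroups stood there at 5.49%, 14.7%, 8.76%, 5.96%, 17.1%, 3.65% and 13.5%. With colony as a fixed replicate block edgeR gave 0 between times and 0 for the change by time 12, where all isogroups called went from 519 to 7 and from 177 to 13. With colony as a random replicate block limma gave 0 for transplants at time 12, against shallow controls at time 6, between controls, between times and for the change by time 12. With the fixed block the change by time 6 stayed at 0. Each colony belongs to 1 arm, so contrasts between arms could not be fitted with it. Without the colonies of the IX-16 transplants of time 6 edgeR gave 0 for transplants against shallow controls at time 6. In the same fits limma gave 0 in all contrasts of the experiment.

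Leaving out single experiment libraries, edgeR gave 0 to 2 and 0 to 3 for transplants against mesophotic controls at time 6 and 12. Against shallow controls it gave 2 to 7 and 2 to 9. It gave 0 to 4 between controls and 6 to 11 between times. For the change it gave 0 by time 6 and 1 to 5 by time 12. The number of all isogroups called ran, in the same order, from 0 to 326, 0 to 101, 295 to 842 and 161 to 704. For the other contrasts it ran from 64 to 228, 424 to 639, 0 to 14 and 33 to 212. The lowest count of members against shallow controls at time 12 came without a transplant of EFGB. In limma the range over members was 0 to 1 between times and for the change by time 12, and 0 otherwise.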
